A study of Mus musculus with 4 samples.

Results

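Genes of the proteasome, the protein complex that degrades ubiquitin-tagged proteins, were followed in RNA sequencing of mouse blood stem and progenitor cells. Members were taken by gene symbol, as every symbol that starts with Psm, a letter from a to g and a digit. The rule used no measured value and matched 49 of the 13749 symbols in the table. These 49 genes held 55 RefSeq transcript rows. Of the 49, 46 encode subunits, chaperones or regulators of the complex in most cells, and Psma8 encodes an alpha subunit of the testis. The other members are Psmc3ip, a meiotic recombination factor named for binding Psmc3, and Psme2b, a copy of Psme2 whose reads may be shared with it. Psmb11 was not analysed here.

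The cells were the LSK fraction of hematopoietic cells (lineage markers absent, Sca-1 and Kit present), sorted by flow cytometry from C57BL/6 mice aged 8 weeks. The knock-in (KI) libraries came from mice heterozygous for the frameshift allele Asxl1G643fs (Asxl1G643fs/+), and the wild-type (WT) libraries from Asxl1+/+ mice, with 8 mice named for each genotype. Each genotype had 2 libraries, numbered 1 and 2. Whether the libraries of a genotype came from separate animals or from a shared pool is not stated, so that every p-value measures the spread between such libraries alone, and this may be technical spread. No Cre driver or transgene is named in the labels.

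In textbook terms, the 20S core is a barrel of stacked rings in which alpha subunits form the outer rings and beta subunits the inner ones, and 3 of the beta subunits carry the proteolytic sites. The 19S cap binds ubiquitin chains, removes them and feeds the unfolded protein into the barrel, driven by a ring of ATPases. In blood cells and after interferon exposure, the immunoproteasome subunits Psmb8, Psmb9 and Psmb10 take the places of Psmb5, Psmb6 and Psmb7 and alter which peptides are cut for display on MHC class I. Other caps, the PA28 and PA200 activators, open the barrel without needing ubiquitin.

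Asxl1 itself stood at 22.2 and 19.1 FPKM (fragments scaled to transcript length and to the fragments mapped in the library) in KI-1 and KI-2, against 20.8 and 18.8 FPKM in WT-1 and WT-2. A frameshift can leave the mRNA level as it is, and the level is thus a weak check of the genotype labels. The gate markers were present, with 83.2 and 95.3 FPKM of Kit in KI libraries and 81.9 and 105 FPKM in WT libraries, and all 10 of the listed LSK markers averaged at least 1 FPKM. Among genes listed as markers of blood lineages, not all of them targets of the gate, 5 neutrophil genes summed to between 25.9 and 134 FPKM in KI and between 20.7 and 60.3 FPKM in WT. The 3 B cell genes summed to between 11.3 and 48.4 FPKM in KI and between 11.9 and 24.1 FPKM in WT. The 3 monocyte genes summed to between 29.2 and 35.3 FPKM in KI and between 21.2 and 22.8 FPKM in WT, and the 5 dendritic cell and MHC class II genes to between 174 and 183 FPKM in KI and between 114 and 166 FPKM in WT. The 5 erythroid genes summed to between 11.8 and 26.7 FPKM in KI and between 8.88 and 8.95 FPKM in WT, and the 3 megakaryocyte genes to between 26.6 and 35.8 FPKM in KI and between 30.5 and 31.1 FPKM in WT. The T cell list and the NK cell list had 1 gene each with a row, at no more than 2.02 FPKM in KI and 4.62 FPKM in WT. Immunoproteasome genes are strongly expressed in mature immune cells, and the part of such cells in the values below was not tested. In bulk samples, fewer cells of a type and less RNA per cell cannot be told apart. Read counts were not used here, so that the depth is unknown.

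All 49 proteasome genes averaged at least 1 FPKM over the 4 libraries and entered the tests, where 11083 genes in all passed that limit. FPKM is scaled to transcript length, so that levels of different genes can be set side by side. The summed FPKM of the 49 genes was 2782 in KI-1 and 3914 in KI-2, against 2711 in WT-1 and 3657 in WT-2. That was 0.858% and 0.951% of the listed FPKM in KI libraries and 0.804% and 0.908% in WT libraries. The KI and WT ranges of this share overlapped (exact two-sided permutation test of 2 against 2 libraries, p = 0.667, with 0.333 as the lowest value this design can reach).

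Alpha subunits of the 20S core, which gate the barrel, ranged from 54.1 FPKM for Psma3 to 198 FPKM for Psma7, a 3.67-fold range for proteins that enter each ring in equal number. Psma4 stood nearly as high as Psma7 on the mean of the libraries, at 191 FPKM. It was the higher of the pair in KI-1 and WT-1 and the lower in KI-2 and WT-2. The noncatalytic beta subunits ranged from 44.7 FPKM for Psmb3 to 116 FPKM for Psmb1. Among catalytic beta subunits, Psmb8 was the most abundant at 136 FPKM, above Psmb6 at 78.1, Psmb7 at 56.9, Psmb9 at 54.4, Psmb5 at 43.8 and Psmb10 at 43.1 FPKM. Psmb10 lay above Psmb5 in KI-1 and WT-1 and below it in KI-2 and WT-2. Immunoproteasome subunits held 57.7% and 56.4% of the summed FPKM of the 6 catalytic genes in KI-1 and KI-2, against 55.4% and 56.8% in WT-1 and WT-2.

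The 6 ATPases of the 19S base kept within a 1.90-fold range, from 52.6 FPKM for Psmc5 to 99.9 FPKM for Psmc1. Lid subunits ranged from 31.3 FPKM for Psmd3 to 105 FPKM for Psmd7, with the deubiquitinase Psmd14 at 47.2 FPKM. The base scaffold gene Psmd2 averaged 87.8 FPKM and the ubiquitin receptor gene Psmd4 70.1 FPKM. Assembly chaperones were lower as a group, from 7.49 FPKM for the 19S chaperone Psmd9 to 36.0 FPKM for the 20S chaperone Psmg4. Psme1, a subunit of the interferon-inducible activator PA28, was the highest of all members at 305 FPKM, while its partner Psme2 averaged 85.5, the nuclear PA28 gene Psme3 80.7 and the PA200 gene Psme4 14.5 FPKM. The lowest members were Psma8 at 3.10, Psme2b at 3.15 and Psmd9. The spread between genes was far wider than that between libraries. Across the 49 genes, log2(FPKM + 1) of KI-1 and WT-1 had a Pearson correlation of 0.985 and that of KI-2 and WT-2 0.990. Pairs of different number correlated less, from 0.966 for KI-2 with WT-1 to 0.975 for WT-1 with WT-2. The genes are not independent replicates.

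**Figure D1:**
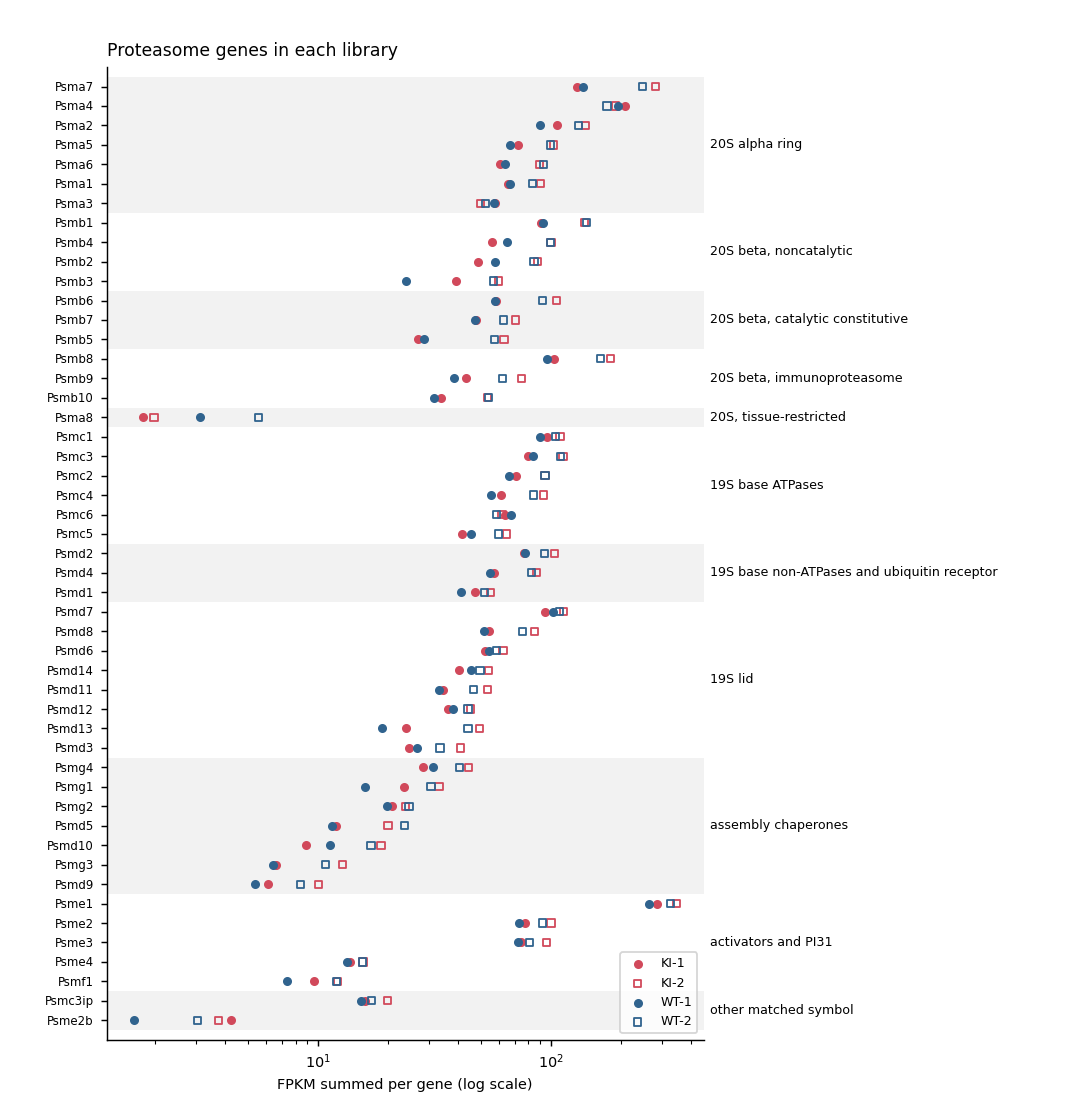
FPKM of each proteasome gene (log axis) in KI-1, KI-2, WT-1 and WT-2, with genes grouped by role and ordered by mean level within a role. Symbols of the same number lie close together for most genes, Psme1 stands highest at 305 FPKM on average, and Psma8 is the gene whose KI values both lie clearly below its WT values.

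Promoters of 5 members are printed as examples, picked in part for motif matches, so that they do not stand for the members. Those of Psmb8, Psmb9 and Psma8 are not printed. Psmb5 and Psmb6 are the constitutive partners of Psmb8 and Psmb9, and Psmd4 has a pair of transcripts described below. Psmd9 holds matches to 2 motifs, as do Psmd4 and Psmb3. Psma3 ran against most other members between library numbers. Each run is the 250 bases before the RefSeq start on GRCm38.p6, read 5′ to 3′ on the gene's strand. Capitals mark matches on either strand to TGACNNNGC (the antioxidant response element core, bound by NFE2L1 and NFE2L2), CCAAT (the NF-Y box) or the interferon response element, which is GAAA, any 2 bases and GAAA again.
Psmb5, chr14:54617996-54618245, minus strand: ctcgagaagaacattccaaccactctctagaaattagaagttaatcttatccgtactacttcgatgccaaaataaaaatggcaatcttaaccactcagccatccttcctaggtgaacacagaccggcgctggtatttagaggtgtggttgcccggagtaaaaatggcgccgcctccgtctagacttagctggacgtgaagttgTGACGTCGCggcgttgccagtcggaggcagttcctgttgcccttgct
Psmb6, chr11:70525107-70525356, plus strand: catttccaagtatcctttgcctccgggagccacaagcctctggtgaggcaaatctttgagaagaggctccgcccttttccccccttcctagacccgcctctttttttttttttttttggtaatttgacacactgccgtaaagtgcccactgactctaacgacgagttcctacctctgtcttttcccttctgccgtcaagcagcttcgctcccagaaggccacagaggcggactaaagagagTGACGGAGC
Psmd4, chr3:95042615-95042864, minus strand: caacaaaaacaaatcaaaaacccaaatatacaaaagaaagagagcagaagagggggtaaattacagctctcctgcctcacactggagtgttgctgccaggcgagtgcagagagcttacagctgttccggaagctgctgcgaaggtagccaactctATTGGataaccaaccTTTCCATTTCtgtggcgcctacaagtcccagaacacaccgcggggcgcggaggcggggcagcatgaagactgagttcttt
Psmd9, chr5:123227940-123228189, plus strand: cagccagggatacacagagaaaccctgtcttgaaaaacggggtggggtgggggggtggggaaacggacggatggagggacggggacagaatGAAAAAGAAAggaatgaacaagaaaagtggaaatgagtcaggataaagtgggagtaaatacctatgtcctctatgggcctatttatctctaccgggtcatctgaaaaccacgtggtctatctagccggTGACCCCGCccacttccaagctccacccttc
Psma3, chr12:70974373-70974622, plus strand: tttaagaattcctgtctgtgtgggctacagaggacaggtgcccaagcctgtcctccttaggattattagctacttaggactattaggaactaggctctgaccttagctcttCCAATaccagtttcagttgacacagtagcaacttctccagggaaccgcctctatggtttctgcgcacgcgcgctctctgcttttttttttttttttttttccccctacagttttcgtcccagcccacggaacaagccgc

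Promoters of 41 of the 49 genes were in the RefSeq table, each running from 250 bases before to 50 after a start. The letters TGACNNNGC were in 6 of the 41, or 14.6%, against 14.0% of all 27025 genes with a promoter, and the 6 were Psmb5, Psmb6, Psmc6, Psmd9, Psmd12 and Psme4. CCAAT was in 14 of 41, or 34.1%, against 41.1% of all genes. The interferon response element was in 5 of 41, or 12.2%, against 3.99% of all genes, in Psmb3, Psmd4, Psmd9, Psme1 and Psmg4. Among the 8970 tested genes with a promoter, the shares of these motifs in the same order were 17.1%, 43.6% and 3.86%. The motifs were searched on both strands, and the matches in capitals share no bases. A match is a description of letters, not of a bound site.

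Between KI and WT, 0 of the 49 genes passed limma's test on log2(FPKM + 1), fitted on all genes with genotype as the term and Benjamini-Hochberg adjustment at 0.05. Among all 11083 genes 0 passed, a background of 0%. At an unadjusted p under 0.05 there was 1 member, Psma8, or 2.04% of members against 0.424% of all genes. That count depended on the values and the terms. With the library number as a replicate block it was 5 of 49 (10.2%, against 7.1% of all genes), and adjusted calls were 0 members and 0.00902% of all genes. On the authors' normalized log2 values it was 15 of 49 (30.6%, against 28.7% of all genes), with 0 adjusted calls (0%) and a smallest adjusted p of 0.0701 among the members in limma. The member share was thus near that of all genes. The standard error of Psmb8 was 0.016 on those values, against 0.39 on log2(FPKM + 1). The log2 fold change was above 0 for 34 of the 49 members (69.4%, against 52.1% of all genes) and below 0 for 15 (30.6%, against 47.9% of all genes). The 34 became 6 without WT-1, 8 without KI-2 and 46 without WT-2 or without KI-1. The median was 0.068 beside 0.0075 over all genes, while the median standard error of a member was 0.30. The 95% interval of the fold change lay within 1 log2 unit of 0 on both sides for 36 of the 49 genes.

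By role, all 3 immunoproteasome genes, all 3 constitutive catalytic genes, all 5 activator and PI31 genes and all 3 genes of the group with the base scaffolds and Psmd4 had a log2 fold change above 0, with medians of 0.13, 0.083, 0.10 and 0.068. Of the 7 alpha subunits 5 were above 0 (median 0.050), of the 6 ATPases 3 (0.021), of the 8 lid subunits 5 (0.054), of the 7 chaperones 4 (0.0092) and of the 4 noncatalytic beta subunits 1, Psmb3 (median -0.062). None of these was called. Summed over the 20S subunits, FPKM was 1.31 and 1.46 times that summed over the 19S subunits in KI-1 and KI-2, against 1.27 and 1.46 times in WT-1 and WT-2, and the genotypes overlapped (exact permutation p = 1).

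KI was also set against WT within each number, with 1 library per genotype and no test. The median difference of the members was 0.049 in number 1 and 0.11 in number 2, beside 0.016 and -0.00038 over all genes. Within both numbers, 25 of the 49 genes were higher in KI (51% of members, against 28.7% of all genes) and 3 were lower in KI (6.12% against 25.5%). The 3 lower ones were Psma6, at -0.079 and -0.061 in numbers 1 and 2, Psmb1, at -0.031 and -0.032, and Psma8, at -0.57 and -1.14. For 1 member, Psme2b, both KI libraries stood above both WT libraries (2.04% against 6.39% of all genes), and for 1, Psma8, both stood below (2.04% against 7.06%). For the other 47 the genotypes overlapped. Leaving out 1 library unbalances the numbers, and the median of the members then ran from -0.17 without KI-2 and -0.14 without WT-1 to 0.27 without WT-2 and 0.32 without KI-1.

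**Figure D2:**
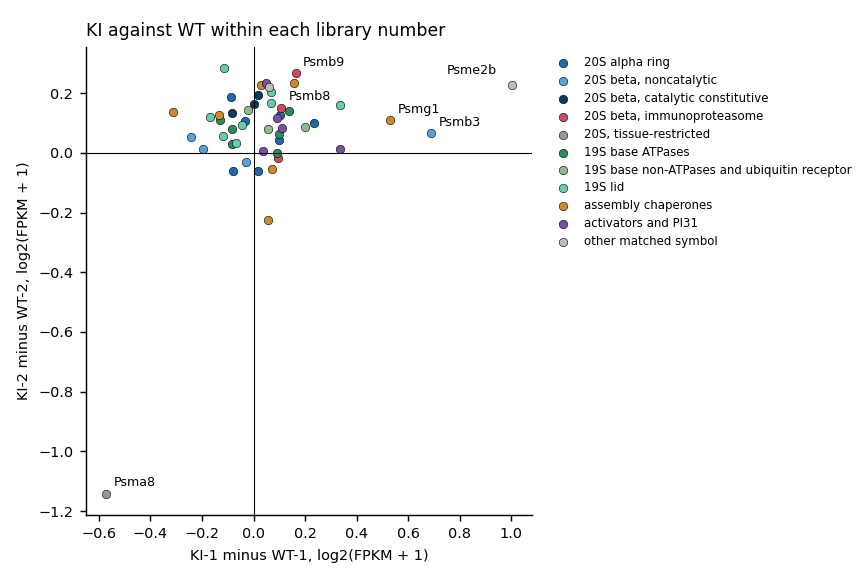
Difference of log2(FPKM + 1) between KI-1 and WT-1 (x axis) and between KI-2 and WT-2 (y axis) for the 49 genes, coloured by role, with no error because each axis compares single libraries. Most genes lie within 0.3 of 0 on both axes, 25 lie above 0 on both, and Psma8 lies apart at -0.57 and -1.14.

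The immunoproteasome genes were each followed beside the constitutive gene whose place the product takes. Psmb8, which replaces the chymotrypsin-like subunit, stood at 103 and 181 FPKM in KI-1 and KI-2, against 95.9 and 162 FPKM in WT-1 and WT-2. KI was the higher one within each number, but KI-1 lay below WT-2. The log2 fold change was 0.13 with SE 0.39 and a 95% interval from -0.81 to 1.07 (limma, adjusted p = 1). Its counterpart Psmb5 stood at 26.9 and 62.8 FPKM in KI, against 28.6 and 57.1 FPKM in WT.

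Psmb9, which replaces the caspase-like subunit, stood at 43.1 and 74.5 FPKM in KI-1 and KI-2, against 38.4 and 61.8 FPKM in WT-1 and WT-2. KI was again higher within each number, by 0.16 and 0.27 on the log2 scale, and the genotypes overlapped. The fold change was 0.21 with SE 0.36 (95% interval from -0.66 to 1.09, limma adjusted p = 1), and in the authors' deposited table the signed fold was 1.12 with an adjusted p of 0.189. Psmb6, its constitutive counterpart, stood at 57.9 and 105 FPKM in KI, against 57.3 and 92.1 FPKM in WT. Psmb10, which replaces the trypsin-like subunit, stood at 33.7 and 53.3 FPKM in KI, against 31.5 and 54.0 FPKM in WT, and Psmb7 at 47.4 and 70.3 FPKM in KI, against 47.4 and 62.6 FPKM in WT. Within the numbers, Psmb10 differed by 0.095 and -0.018 and Psmb7 by 0.0013 and 0.16.

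As ratios of FPKM, Psmb8 stood at 3.85 and 2.87 times Psmb5 in KI-1 and KI-2, against 3.36 and 2.85 times in WT-1 and WT-2. The mean log2 ratio was 1.73 ± 0.30 in KI and 1.63 ± 0.17 in WT (SD, n = 2 each, exact two-sided permutation p = 0.667). Psmb9 stood at 0.744 and 0.707 times Psmb6 in KI, against 0.670 and 0.671 times in WT. Both KI ratios lay above both WT ratios here, with a mean log2 ratio of -0.46 ± 0.051 in KI and -0.58 ± 0.0016 in WT (SD, n = 2 each, exact permutation p = 0.333, the smallest possible). Psmb10 stood at 0.710 and 0.759 times Psmb7 in KI, against 0.664 and 0.863 times in WT, and the WT values lay on both sides of the KI values (exact permutation p = 1).

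**Figure D3:**
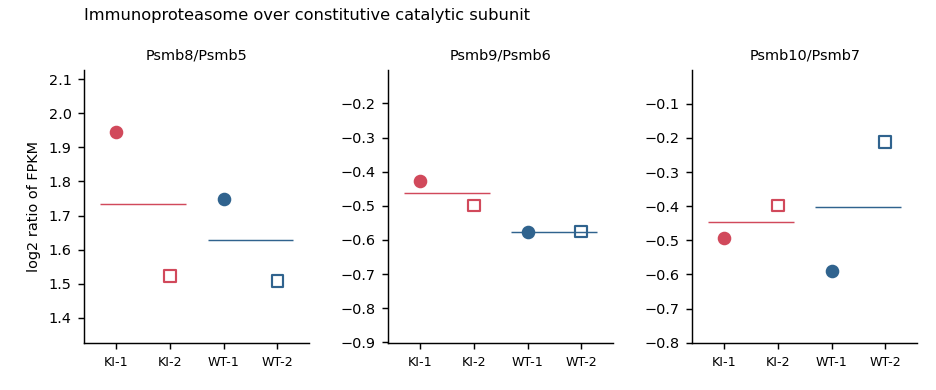
Log2 ratio of FPKM of Psmb8 to Psmb5, Psmb9 to Psmb6 and Psmb10 to Psmb7 in KI-1, KI-2, WT-1 and WT-2, with lines at the genotype means. Each panel spans the same height on the log2 scale, and the genotypes separate for Psmb9 to Psmb6 only, by 0.11 between the means.

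Psmb8 and Psmb9 lie side by side with the peptide transporter genes Tap1 and Tap2 in the MHC on chromosome 17 (GRCm38), Psmb9 from 34182030 to 34187330 and Psmb8 from 34198195 to 34201454. Tap1 lies between them, 225 bases from Psmb9 and 969 bases from Psmb8, and Tap2 starts 3024 bases beyond Psmb8. Tap1 stood at 52.9 and 71.1 FPKM in KI, against 55.0 and 70.5 FPKM in WT, and Tap2 at 91.9 and 133 FPKM in KI, against 97.1 and 123 FPKM in WT. Of the 11 tested genes of MHC class I loading and its inducers, limma called 0 between genotypes, 3 had a fold change above 0 and 8 below, and the median was -0.038. Irf1, a transcription factor that induces immunoproteasome genes, stood at 59.3 and 78.7 FPKM in KI, against 70.1 and 73.3 FPKM in WT, and the class I regulator Nlrc5 at 15.0 and 13.9 FPKM in KI, against 14.9 and 14.8 FPKM in WT.

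Psma8, the testis alpha subunit that stands in for Psma7 there, was the member with the smallest unadjusted p. It stood at 1.77 and 1.97 FPKM in KI-1 and KI-2, against 3.11 and 5.55 FPKM in WT-1 and WT-2, and the genotypes did not overlap. The log2 fold change on the log2(FPKM + 1) scale was -0.86 with SE 0.31 and a 95% interval from -1.61 to -0.10 (limma, unadjusted p = 0.0322, adjusted p = 1), so that it was not called over all genes tested. Psma7, the somatic counterpart, stood at 129 and 281 FPKM in KI, against 137 and 246 FPKM in WT. Psme2b stood at 4.23 and 3.73 FPKM in KI, against 1.62 and 3.04 FPKM in WT, with a fold change of 0.61 (SE 0.30). Its values are uncertain because reads can be split between it and Psme2, which stood at 77.4 and 99.99 FPKM in KI, against 72.6 and 92.1 FPKM in WT.

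Among the other members with the smallest p, the noncatalytic subunit gene Psmb3 stood at 39.0 and 59.3 FPKM in KI, against 23.8 and 56.7 FPKM in WT. WT-1 was the lowest, and KI-1 also lay below both libraries numbered 2. The difference between KI and WT was 0.69 on the log2 scale in number 1 and 0.066 in number 2. Psmg1, a chaperone of alpha ring assembly, had the same form, with 23.4 and 33.0 FPKM in KI, against 15.9 and 30.5 FPKM in WT. On the lower side, the noncatalytic subunit genes Psmb2 and Psmb4 had fold changes of -0.096 and -0.092, and the chaperone genes Psmd10 and Psmd5 of -0.089 and -0.085. Of these 4 none was lower in KI within both numbers. Of the 55 member transcripts in the authors' deposited table, 0 had an adjusted p under 0.05 (background 0.0161% of 18691 transcripts), and 5 had an unadjusted p under 0.05 (9.09% against 21.6%), those of Psmb8, Psmb9, Psmc3, Psmc4 and Psmd9.

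Between libraries numbered 2 and 1, most proteasome genes were higher in number 2 in FPKM. Limma, with the library number as the only term, called 35 of the 49 members higher (71.4%, against 35.6% of all genes) and 0 lower (0%, against 4.6% of all genes). The median log2 fold change of the members was 0.50, beside a shift of 0.27 over all genes. Without KI-2 the number called was 16 and without WT-2 it was 23, while without KI-1 and without WT-1 it was 36 and 34. With each library scaled to the same median, 17 members were called higher (34.7%, against 9.12% of all genes) and 3 lower (6.12%, against 10.4%), and the median of the members was 0.25, beside 0.014 over all genes. On the authors' normalized log2 values the median was 0.0027, and limma called 0 members, with 0 at an unadjusted p under 0.05. It called 0 of all genes on those values too, so that the absence of calls is not particular to the members. In both genotypes 45 members were higher in number 2 (91.8%, against 69.1% of all genes) and 3 were lower (6.12%, against 15.1%). What the number marks is not given in the labels.

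All 4 noncatalytic beta subunits, all 3 constitutive catalytic subunits and all 3 immunoproteasome subunits were called higher in number 2, with medians of 0.71, 0.76 and 0.73. Psmb5 had the smallest adjusted p of the members, with 62.8 and 57.1 FPKM in KI-2 and WT-2, against 26.9 and 28.6 FPKM in KI-1 and WT-1. Both libraries numbered 2 lay above both numbered 1, at a log2 fold change of 1.08 with SE 0.088 (limma, adjusted p = 0.00283), and of 0.83 after median scaling (limma, adjusted p = 0.00563). The lid gene Psmd13 had the highest fold change, 1.10 with SE 0.13, with 49.2 and 44.0 FPKM in KI-2 and WT-2, against 23.9 and 18.7 FPKM in KI-1 and WT-1. Psma7 rose by 0.98 (SE 0.091), and Psmb8, Psmb9 and Psmb10 by 0.78, 0.73 and 0.70.

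Of the 7 alpha subunits 5 were called higher in number 2, of the 6 ATPases 4, of the 8 lid genes 5, of the 7 chaperones 6 and of the 5 activator and PI31 genes 3, whose median of 0.29 was close to that of all genes. After median scaling, 0 of those 5 were called. Psma3, Psma4 and Psmc6 had fold changes of -0.16, -0.14 and -0.12 and were not called (adjusted p = 0.139, 0.220 and 0.255), while after median scaling they were the 3 members called lower. Psma4 stood at 189.7 and 174 FPKM in KI-2 and WT-2, against 207 and 193 FPKM in KI-1 and WT-1. The log2 ratio of Psmb8 to Psmb5 was 0.33 lower and that of Psmb10 to Psmb7 0.24 higher in number 2, while that of Psmb9 to Psmb6 was 0.035 lower. Of 6 immediate early and heat shock genes, limma called Fos, Jun and Egr1 lower in number 2, but not Dusp1 (adjusted p = 0.0577), Hspa1a or Hspa1b (both higher in KI-2 than in KI-1 and lower in WT-2 than in WT-1). Fos, Jun and Egr1 carried most of the sum over the 6, which was 1241 and 1465 FPKM in KI-2 and WT-2, against 2295 and 4894 FPKM in KI-1 and WT-1. Neutrophil markers summed to 25.9 and 20.7 FPKM in KI-2 and WT-2, against 134 and 60.3 FPKM in KI-1 and WT-1. Their part in the difference was not tested.

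**Figure D4:**
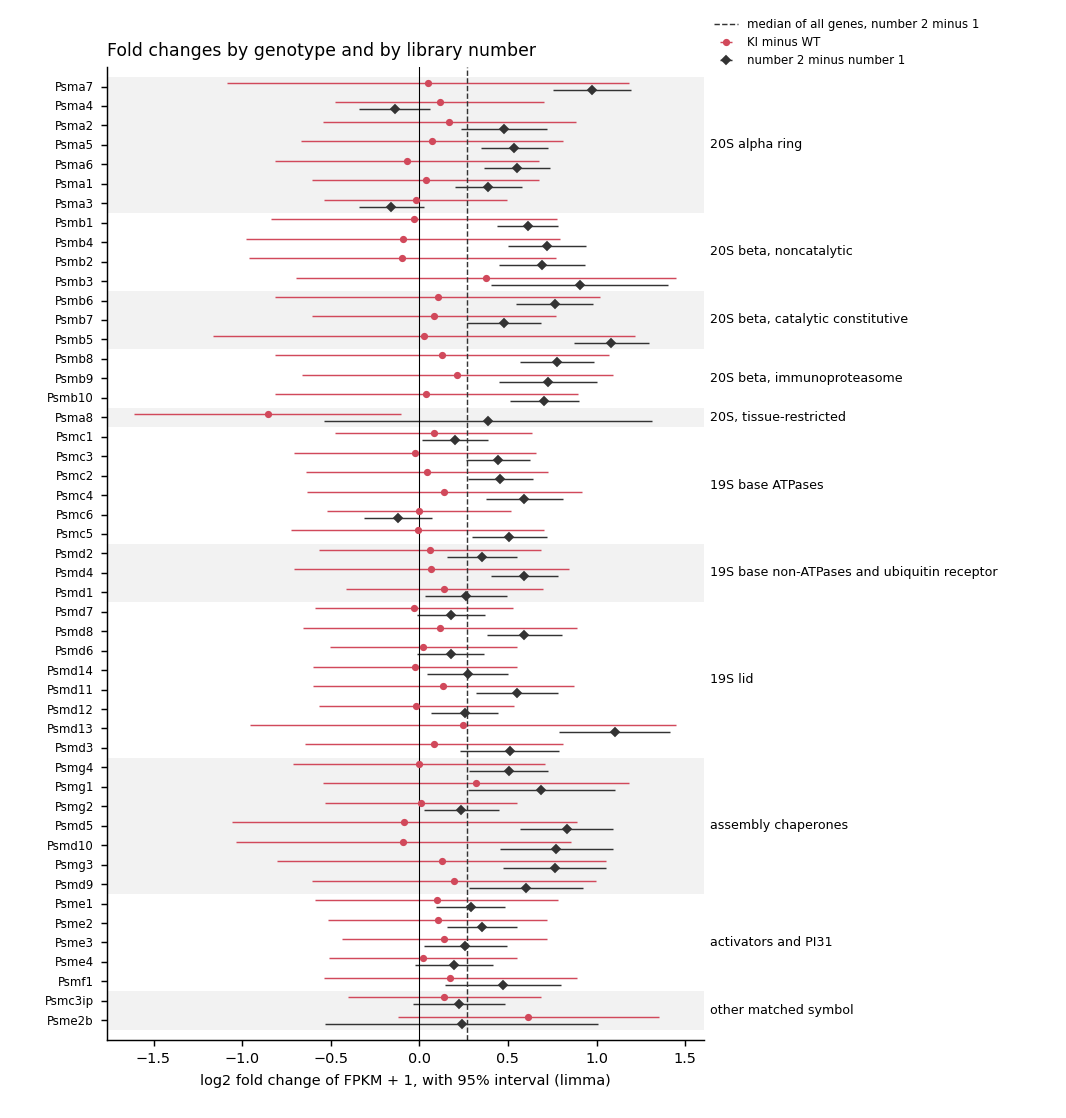
Log2 fold change of FPKM + 1 with its 95% interval from limma (n = 2 libraries per side) for KI minus WT in red and number 2 minus number 1 in black, by gene and role, with a dashed line at the all-gene median of 0.27 for number 2 minus 1. Every red interval but that of Psma8 spans 0, and 35 of the 49 black points are called, among them all 10 genes of the beta ring.

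Most members had 1 transcript row, and 6 had 2. In 3 of these 6 the minor transcript held at least 10% of the FPKM of the gene. Psmd4, the ubiquitin receptor gene, held 42.4% and 57.6% of its FPKM in the rows, and both rows were higher in number 2 in each genotype. No test compared the rows. Transcript NM_001282017 stood at 46.3 and 36.6 FPKM in KI-2 and WT-2, against 18.6 and 17.4 FPKM in KI-1 and WT-1, while NM_008951 stood at 40.6 and 45.6 FPKM in KI-2 and WT-2, against 38.1 and 37.2 FPKM in KI-1 and WT-1. The first of these made up 53.3% and 44.5% of Psmd4 in number 2, against 32.8% and 31.9% in number 1. By genotype its share was 32.8% and 53.3% in KI, against 31.9% and 44.5% in WT, and the genotypes overlapped. Psmg4 held its rows in near equal parts too, with NM_001101430 at 49.8% and 57.5% in KI, against 45.6% and 54.1% in WT. For the chaperone gene Psmd10 the minor transcript varied from 2.52% in KI-1 to 20.03% in WT-1. How the reads were divided between overlapping transcripts of a gene is an estimate, and these shares carry that limit.

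Genes with more G and C in their transcripts, and shorter transcripts, tended to have a higher fold change between numbers. The GC content of the leading transcript (GENCODE M21, available for all 49 members), a measure chosen after the values were seen, ran from 37.0% for Psmc6 to 58.3% for Psmd3. Across the 49 genes its Pearson correlation with the fold change between numbers was 0.55 (Spearman 0.53), and across 10953 tested genes 0.31 (Spearman 0.36). These are descriptions across genes that share the same 4 libraries. Transcript length, on a log10 scale, had correlations of opposite sign. Across the members it was weaker than that of GC content, at -0.27 (Spearman -0.27). Across all genes it was of a like size, at -0.27 (Spearman -0.34). The 2 members with a GC content of 35% to 40% had a median fold change of 0.18, against 0.0031 for all tested genes in that range. For the 9 members of 40% to 45% it was 0.27, against 0.10 for all genes, and for the 15 members of 45% to 50% it was 0.26, against 0.23. The 14 members of 50% to 55% had a median of 0.60, against 0.35, and the 9 members of 55% to 60% one of 0.73, against 0.39. The members lay closest to all genes in the range of 45% to 50%, which held the most members. With the fold change between KI and WT the Pearson correlation of GC content was 0.31 across members and -0.0025 across all genes tested. The all-gene value joins opposite signs, at -0.083 within number 1 and 0.11 within number 2. Across members these were 0.18 and 0.37. The part of base composition and of length in the difference between numbers was not tested.

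**Figure D5:**
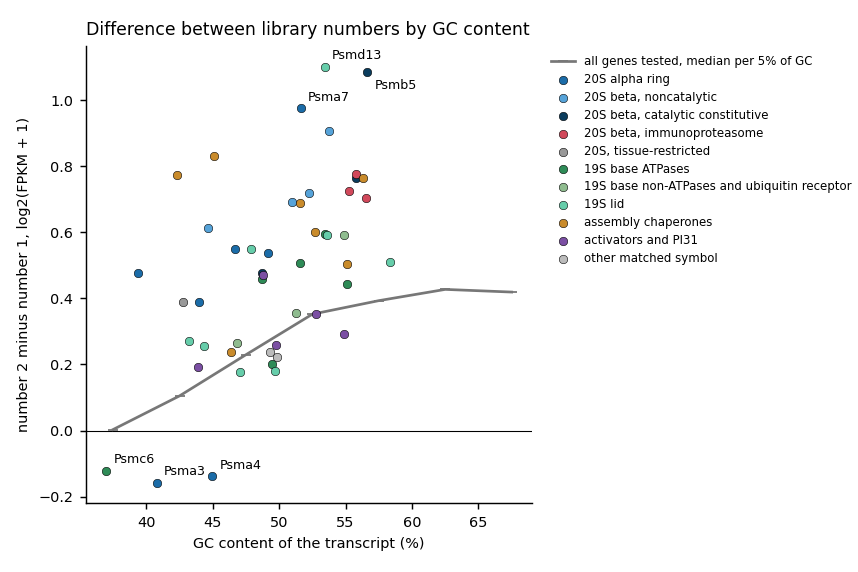
Fold change between numbers 2 and 1 on the log2(FPKM + 1) scale against GC content of the leading transcript for the 49 genes, coloured by role, with the median of all tested genes per 5% of GC as a grey line. Psmc6, Psma3 and Psma4, at GC contents of 37.0%, 40.8% and 45.0%, lie below 0, and Psmb5, at 56.6% and a fold change of 1.08, lies near the top.

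Genes that work with the proteasome were followed from a list chosen by role. Of 37 such genes with a mean of at least 1 FPKM, limma called 0 between KI and WT, 0 had an unadjusted p under 0.05, and the median log2 fold change was 0.016. Pomp, the maturation factor that helps the beta ring close, stood at 268 and 175 FPKM in KI-1 and KI-2, against 284 and 166 FPKM in WT-1 and WT-2. It was lower in number 2, by 0.69 on the log2 scale (SE 0.077, limma adjusted p = 0.00382). Of the 37, 16 were called higher and 3 lower in number 2, and after median scaling 2 and 5. Over all genes tested, 35.6% were called higher and 4.6% lower, and after median scaling 9.12% and 10.4%. The lower ones without scaling were Pomp, the proteasome-bound deubiquitinase gene Uchl5, at -0.41, and Mafk, a small partner of NFE2L1, at -0.50. The ubiquitin receptor Adrm1 stood at 39.7 and 56.6 FPKM in KI, against 37.2 and 55.4 FPKM in WT, and the small lid subunit Shfm1 at 384 and 598 FPKM in KI, against 389 and 546 FPKM in WT.

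Nfe2l1, whose product raises transcription of proteasome genes when the complex is inhibited, stood at 27.5 and 34.8 FPKM in KI, against 26.9 and 37.3 FPKM in WT, a log2 fold change of -0.035 (SE 0.26, limma adjusted p = 1). Ddi2, the protease that activates it, stood at 17.3 and 17.5 FPKM in KI, against 13.0 and 15.6 FPKM in WT. Both KI values lay above both WT values for Ddi2, and the fold change of 0.27 was not called (limma, unadjusted p = 0.251). Such a separation held for 6.39% of all genes tested, and on the list by role also for Rad23b, Usp14 and Ufd1l. For Zfand5 both KI values lay below both WT values, as for 7.06% of all genes tested. Ngly1, the deglycosylating enzyme of the same step, stood at 8.34 and 13.2 FPKM in KI, against 12.2 and 14.1 FPKM in WT. Vcp, the unfolding ATPase that hands proteins to the proteasome, stood at 102 and 149 FPKM in KI, against 97.1 and 139.5 FPKM in WT. In each of these genes but Ddi2 the genotypes overlapped.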

How the data were processed

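RNA of 4 LSK libraries, 2 KI and 2 WT, was analysed from a deposited table with 1 row per RefSeq transcript. TopHat and Cufflinks, on build mm10 (GRCm38), are named in the submitters' processing notes, without versions or settings. The authors deposited FPKM values, none of them 0, and normalized log2 values whose method is not stated. Their deposited comparison of KI with WT holds p-values and, as scores, a signed linear fold and a test statistic. As read counts were not used here, depth is unknown and intervals do not cover counting error.

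FPKM were summed per symbol, genes with a mean of at least 1 were kept, and log2(FPKM + 1), which understates changes of low genes, was tested with limma 3.58.1 in R 4.3.3 (trended prior variance, two-sided, Benjamini-Hochberg over 11083 genes at 0.05), on genotype or library number alone. The residual spread of the genotype test holds the difference between the numbers. Scripts were tested on simulated data. Members, lists and tests were chosen with earlier results of these data known. Named in full were the catalytic and activator genes, up to 6 members per direction and comparison with the smallest p, the 3 highest and 3 lowest members, and genes with a second transcript of at least 10%. Of the 41 genes listed by role, 3 had no row used here. Promoter sequences are from RefSeq (GRCm38.p6). A further motif that was searched is not reported here. Alternatives were a pseudocount of 0.1, no filter or a mean of at least 5, median and quantile scaling, the highest transcript per symbol, the authors' log2 values, the library number as a term, and each library left out.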

Additional observations from a re-analysis of the deposited data

How the results depend on the processing

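Between KI and WT, 0 members were called under every alternative run, and the median fold change of the members kept its sign in each except when a library was left out. Over all genes the count of calls was 1 with the library number as a replicate block, and 7 to 37 with a library left out. The labels do not say that numbers pair libraries, so the block is an alternative only: deviations from the genotype means correlated at 0.69 between the genotypes, a single value since with 2 libraries the deviations in number 2 mirror those in number 1, 0 members were called with it between KI and WT, and 36 between numbers with genotype as the block. Leaving out a library puts different numbers into the genotypes. The median of the members then ran from -0.17 to 0.32, and these log2 fold changes of KI against WT turned sign: Psmb8 -0.27 to 0.53, Psmb9 -0.17 to 0.60, Psmb10 -0.34 to 0.42, Psmb5 -0.57 to 0.62, Psmb6 -0.32 to 0.53, Psmb7 -0.20 to 0.36, Psme1 -0.055 to 0.25, Psme2 -0.080 to 0.29, Psme4 -0.083 to 0.12, Psmg1 -0.13 to 0.77, Psmb3 -0.23 to 0.99, Psmd1 -0.019 to 0.30, Psma7 -0.51 to 0.61, Psma3 -0.12 to 0.077, Psmc6 -0.10 to 0.1, Psmd9 -0.12 to 0.51, Psmd4 -0.23 to 0.37, Psmb2 -0.52 to 0.32, Psmb4 -0.50 to 0.32, Psmd10 -0.59 to 0.41, Psma6 -0.35 to 0.21, Psmd5 -0.57 to 0.40, Psmb1 -0.34 to 0.27, Psmg4 -0.32 to 0.31, Psme3 -0.035 to 0.32, Psmc3ip -0.012 to 0.29. The log2 ratio of Psmb8 to Psmb5 ran from -0.10 to 0.32, that of Psmb10 to Psmb7 from -0.23 to 0.14, and the proteasome share of listed FPKM from -0.0034 to 0.101 percentage points. With the highest transcript in place of the sum, Psmd10, Psmd4 and Psmg4 had fold changes of 0.0020, -0.063 and 0.10, and with the authors' log2 values Psmd4 and Psmg4 had -0.054 and 0.065, since a single transcript then stands for the gene.

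Between numbers, the members called were 20 with median scaling, 21 with quantile normalization, 0 with the authors' log2 values and 16 to 36 with a library left out, and the genes called in all were 2163, 2187, 0 and 1162 to 4808. The median of the members was 0.25 with median scaling, 0.25 with quantile normalization and 0.0027 with the authors' log2 values. Under these 3, Psme4 had -0.063, -0.058 and -0.00049 and Psmc3ip had -0.033, -0.034 and -6.4e-05. Psme2b had -0.017 and -0.024 under the 2 scalings, and Psmd4 had -0.00036 with the authors' log2 values. With a library left out, Psme2b ran from -0.26 to 0.74 and Psma8 from -0.18 to 0.96. Where no cause is named, the cause was not tested. No alternative could be run on read counts, and with 2 libraries per genotype the exact permutation tests cannot reach 0.05.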
